A study of Mus musculus with 113 samples.

Results

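The genes described here are 10 components of the Notch pathway that act at the cell surface or on the sugars of the receptor. They are the receptors *Notch1*, *Notch2*, *Notch3* and *Notch4*, the ligands *Dll1*, *Dll3*, *Jag1* and *Jag2*, and the Fringe glycosyltransferases *Lfng* and *Mfng*. Each was taken from the tables of expression values by its symbol. All 10 were listed in 3 of the 4 tables, and 9 in the table of single cells, which does not list *Notch4*, out of 23739 symbols in any table.

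The study followed mouse embryonic stem (ES) cells into the neural lineage by RNA sequencing. R1 ES cells were differentiated in SFEB culture, where aggregates float in serum-free medium, or as an adherent monolayer in N2B27 medium. By the protocol both cultures were replated on coated dishes on day 6, those from SFEB after dissociation. The last window therefore joins samples from before and after replating: 216 h follows it, and for 144 h the order is not stated. E14 ES cells, wild type (WT) or with *Fyn* knocked out (KO), were sequenced at day 0 and after 4 days of differentiation. Levels are given in FPKM, fragments scaled to transcript length and library size, and for single cells in the closely related RPKM.

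The SFEB populations number 22, each from 1 time: 14 of a first series from 0 to 142 h and 8 of a parallel series from 0 to 216 h, the latter at the times at which 64 single cells were picked, 8 at each of 8 times. The adherent culture was sampled at 15 times from 0 to 216 h. The E14 cells gave 12 libraries, 3 in each of 4 groups: WT and KO at day 0 and day 4. The KO is 1 clone, with a deletion that removes the initiation codon of *Fyn*, so clone and genotype cannot be told apart. Read counts are not in the tables, so the depth of a library cannot be computed from them. The summed FPKM of a sample ran from 415066 to 572961 in the SFEB populations, from 463349 to 557785 in the adherent culture and from 525639 to 909369 in the E14 libraries.

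Notch receptors are cut after binding a ligand on a neighbouring cell, and the freed intracellular part joins RBPJ in the nucleus to switch on genes such as the *Hes* and *Hey* repressors. In the embryonic nervous system, cells that begin to form neurons carry delta ligands and activate Notch in their neighbours, which stay progenitors. Fringe enzymes lengthen sugars on the receptor and thereby change how it responds to delta and to jagged ligands.

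Some samples stood apart before any test. In E14 WT day 4 library 1 a single small nucleolar RNA gene, *Snord22*, held 28.1% of the summed FPKM of 909369, and Pearson's r across genes with the other 2 libraries of its group was 0.942 and 0.946. *Snord22* also held 28.5% of KO day 4 library 2 and 23.1% of WT day 4 library 2. KO day 0 library 3 correlated at 0.931 to 0.946 with its own group and at 0.950 with WT day 0 library 1. Other libraries were also nearest to a library of the other genotype. Day 4 libraries 3 of WT and KO correlated at 0.976 with each other, and at most at 0.965 and 0.970 within their own groups. WT day 0 library 1 correlated at 0.965 with KO day 0 library 1 and at most at 0.962 within its group. No 2 libraries, populations or cells held the same values.

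The *Fyn* level checks the labels of the E14 libraries. It was 3.21, 2.74 and 4.00 FPKM in WT libraries 1, 2 and 3 at day 0, and 9.44, 4.54 and 6.76 FPKM at day 4. In the KO it was 0.598, 0.598 and 1.10 FPKM at day 0, and 1.19, 1.13 and 1.58 FPKM at day 4. Every KO library lay below every WT library. The difference on log2(FPKM + 1) was -1.74 at day 4 (limma, adjusted p 0.0193, 0.00727 to 0.219 over the alternatives) and -1.29 at day 0 (adjusted p 0.0601, 0.0312 to 0.222 over the alternatives, 5 of which passed). The day 4 call ended in 6 of 19 alternative settings, for example without WT day 4 library 1 (0.0535) or library 3 (0.0622), and without KO day 4 library 1 (0.126), 2 (0.116) or 3 (0.0541), and with the 2 groups fitted alone (0.219).

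Markers of other cell types moved with time in the R1 cultures. Of 10 fibroblast genes, 9 were lower at 126 to 216 h than at 0 to 9 h of SFEB culture, and the most abundant was *Vim* in every population. Their summed level was 1523, 1549, 1355 and 765 FPKM at 0, 1, 2 and 8 h of the first series, and 1565 and 722 FPKM at 0 and 9 h of the parallel series. It was 136 to 194 FPKM at 34 to 60 h and 155 to 252 FPKM at 80 to 106 h, and then 365, 576, 502 and 859 FPKM at 126, 142, 144 and 216 h. None of the 10 was at 0 in any population, and *Col1a1* ran from 316 FPKM at 0 h to 0.743 FPKM at 142 h. At 142 h the sum was thus above that of 34 to 60 h while *Col1a1* was low. The sum therefore does not follow each gene of the list, and its late rise is not a measure of fibroblasts. Of 5 mural cell genes 3 were listed, and all 3 were lower at 126 to 216 h. *Acta2* was the most abundant of them, and the sum fell from 274 FPKM at 0 h to 7.29 FPKM at 142 h of the first series. In adherent culture the fibroblast sum also ran through a low but ended above its start, from 853 FPKM at 0 h through 211 FPKM at 53.5 h to 1138 FPKM at 144 h and 1051 FPKM at 216 h, with a mural sum of 205 FPKM at 144 h and 14.4 to 23.6 FPKM at the other 3 late times. In the E14 libraries the fibroblast sum was 52.0 to 372 FPKM, mostly *Sparc* and *Vim*. Of the same list *Thy1* reached 7.23 FPKM, *Col1a2* 3.67 FPKM and *Dcn* 2.46 FPKM, while *Col3a1* reached at most 0.0773 FPKM and *Postn* at most 0.0178 FPKM. Of endothelium *Pecam1* ran from 4.17 to 39.3 FPKM and *Tek* reached 3.12 FPKM, while *Emcn* was at 0 in every library. Of blood *Gata1* reached 0.831 FPKM, while *Ptprc* was at 0 in every library. By the study's methods the cells had been cleared of feeders before differentiation. The part of any such cells in the levels of the Notch genes was not tested. In such bulk samples, fewer cells of a type and less RNA per cell cannot be told apart.

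Neural markers rose in the same window as several Notch genes. Of 6 listed neural progenitor genes 5 were higher at 126 to 216 h than at 0 to 9 h of SFEB culture, and of 6 listed neuron genes 4. The progenitor sum was 117 to 161 FPKM at 0 to 9 h, mostly *Sox2*, and 456, 705, 439 and 929 FPKM at 126, 142, 144 and 216 h, where *Fabp7* was the most abundant. The neuron sum was 140 to 257 FPKM at 0 to 9 h, and 316, 600, 332 and 882 FPKM at the same late times, with *Tubb3* the most abundant. The values of *Fabp7* and *Dcx* in the parallel 0 h population were below 0 after the batch correction and were set to 0. All 7 listed naive pluripotency genes were lower at 126 to 216 h, but the sum was higher in the parallel series (306 FPKM at 144 h) than in the first (59.7 FPKM at 142 h). How far the Notch genes follow from the shares of these cells was not tested.

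Levels per length order the genes as follows. At 0 to 9 h of SFEB culture *Notch3* was highest with a mean of 16 ± 7.68 FPKM (SD, n = 6), and its level did not differ beyond the spread from *Notch1* at 11.5 ± 3.44 FPKM or *Jag2* at 10.4 ± 4.62 FPKM. *Jag1* (7.59 FPKM), *Notch2* (6.90 FPKM), *Mfng* (4.54 FPKM), *Notch4* (4.01 FPKM), *Dll3* (2.52 FPKM), *Dll1* (1.89 FPKM) and *Lfng* (1.71 FPKM) followed, each closer to the next than the sum of their SDs. By 126 to 216 h the order had changed: *Notch3* at 34.8 ± 5.10, *Dll1* at 32.8 ± 12.6, *Dll3* at 26.5 ± 11.1, *Notch1* at 25.1 ± 3.17 and *Lfng* at 20.9 ± 4.67 FPKM (SD, n = 4) overlapped each with the next. *Mfng* at 15.3 ± 3.09, *Notch2* at 13.8 ± 2.37 and *Jag1* at 13.8 ± 1.24 FPKM followed without a gap wider than the summed SDs, and *Jag2* at 6.12 ± 0.697 and *Notch4* at 1.01 ± 0.238 FPKM lay below them, each apart from its neighbours. The late adherent order was the same for all 10 genes, from *Notch3* at 38.5 ± 8.50 to *Notch4* at 0.677 ± 0.0586 FPKM (SD, n = 4). In E14 WT cells at day 4 *Notch3* led again with 14.6 ± 7.22 FPKM, *Notch2* followed with 7.19 ± 0.508 FPKM, and *Jag1*, *Notch1*, *Dll1*, *Jag2* and *Mfng* between 5.88 and 3.76 FPKM were each closer to the next than the sum of their SDs (n = 3). The tables were normalized separately, so levels are set side by side and not tested between cultures.

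**Figure D1:**
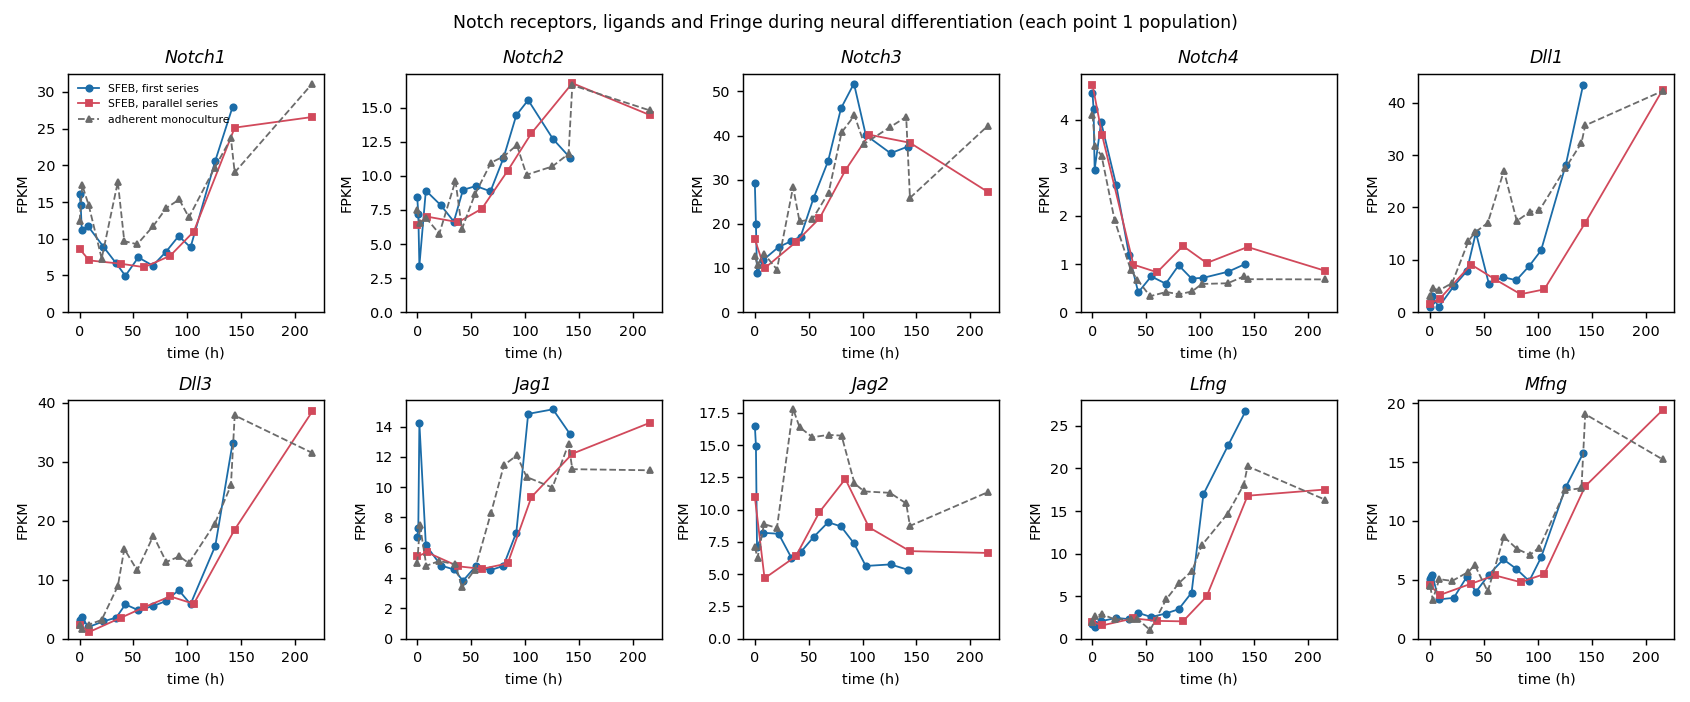
Level of each gene over time (hours, x axis; FPKM, y axis) in the first and parallel SFEB series and in the adherent culture, 1 point for each population. *Dll1* ends at 42.5 FPKM in the parallel SFEB series and at 42.3 FPKM in the adherent culture, while *Notch4* ends at 0.859 and 0.680 FPKM.

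The SFEB time course asks when the Notch genes change as ES cells turn into neural cells. *Notch4* and *Notch1* fell first while *Dll1* rose, *Notch2* and *Notch3* rose in the middle of the course, and *Notch1*, the delta ligands and both Fringe genes rose at its end. The late cells thus carried a different set of receptors and ligands from the ES cells: little *Notch4*, and delta ligands at levels near those of the receptors. Populations of neighbouring times stand in for replicates here, so the spread within a window includes change within it. From 34 h on *Notch4* was at most 1.37 FPKM in every population.

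Between 34 to 60 h (5 populations) and 0 to 9 h (6 populations) limma called 4 of 10 members at an adjusted p below 0.05. This share is near the 39.2% of all 13530 genes tested. Of the members called 2 were higher (16.5% of all genes) and 2 lower (22.7%). For 80 to 106 h (5 populations) against 34 to 60 h limma called 5 of 10, all higher, against 35.1% of all genes (22.5% higher, 12.6% lower). The last step, 126 to 216 h (4 populations) against 80 to 106 h, gave 6 of 10, all higher, against 40.1% (25.1% higher, 15% lower). From end to end, 126 to 216 h against 0 to 9 h, all 10 members were called, 8 higher and 2 lower, against 66.9% of all genes (37.4% higher, 29.5% lower). The median log2 difference of the members was 0.15, 0.47, 1.05 and 1.17 in these 4 comparisons, and that of all genes -0.03, 0.06, 0.05 and 0.07. The comparisons share populations, so their counts are not independent. Quantile normalization moved the share of higher calls among all genes from 42.1 to 55.5% at 34 to 60 h (2234 higher and 3071 lower against 3035 and 2431), from 64.1 to 50.4% at 80 to 106 h (3046 and 1706 against 2248 and 2216) and from 62.5 to 47.3% at 126 to 216 h against 80 to 106 h (3396 and 2035 against 2601 and 2900). In the parallel series alone, with fewer populations, the count at 34 to 60 h was 1 of 10 and that at 80 to 106 h was 0 of 10, and under quantile normalization or in the first series alone the latter was 2 of 10. Leaving out 1 population gave 2 to 5 calls at 80 to 106 h, with 2 without 34 h or 106 h and 3 without 42.5 h or 92 h.

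Of the receptors, *Notch1* is the one most used in the early embryo. At 0 to 9 h its lowest, median and highest levels were 7.05, 11.4 and 16.1 FPKM. It stood at 6.64, 4.95 and 7.46 FPKM at 34, 42.5 and 54.5 h of the first series and at 6.60 and 6.13 FPKM at 38 and 60 h of the parallel one. These middle values overlap the early ones only at 9 h. *Notch1* then stood at 8.19, 10.4 and 8.83 FPKM at 80, 92 and 103 h and 7.67 and 11 FPKM at 84 and 106 h, and at 20.6, 27.9, 25.1 and 26.6 FPKM at 126, 142, 144 and 216 h. All late values exceed all earlier ones. On the log2 scale *Notch1* fell by 0.72 to 34 to 60 h (adjusted p 0.00127 in limma), rose by 0.47 (0.0317) and rose by 1.37 (1.41e-05). The fall ended in the parallel series alone (0.615) and with only 8 and 9 h as the early window (0.0916), over alternatives from 0.000195. The middle rise ended under quantile normalization (0.169), within either series (0.0698 and 0.410), and without 34, 42.5, 92 or 106 h (0.0569, 0.103, 0.0698 and 0.104), over alternatives from 0.0158.

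*Notch2*, a receptor with a course of its own, had 3.41, 7.10 and 8.92 FPKM as lowest, median and highest level at 0 to 9 h. It was at 6.65, 8.98 and 9.26 FPKM at 34, 42.5 and 54.5 h and 6.60 and 7.59 FPKM at 38 and 60 h, and at 11.3, 14.5 and 15.6 FPKM at 80, 92 and 103 h and 10.4 and 13.1 FPKM at 84 and 106 h. Late values were 12.7, 11.3, 16.8 and 14.5 FPKM at 126, 142, 144 and 216 h. *Notch2* thus moved once, between 60 and 80 h, by 0.66 on the log2 scale (adjusted p 0.00835 in limma). That call ended within the first series (0.0651) and the parallel series (0.328), over alternatives from 0.000868. Between the last windows its difference did not pass the threshold, and from end to end it rose by 0.94 (adjusted p 0.000184).

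*Notch3* was the highest receptor in every population but that of 2 h, where *Notch1* had 11.2 FPKM. Its level fell within the first window, from 29.2 FPKM at 0 h to 19.97, 8.81 and 11.9 FPKM at 1, 2 and 8 h of the first series, and from 16.5 to 9.93 FPKM between 0 and 9 h of the parallel series. It was 16.1, 17.1 and 25.8 FPKM at 34, 42.5 and 54.5 h and 15.8 and 21.2 FPKM at 38 and 60 h. At 80, 92 and 103 h it reached 46.2, 51.8 and 40.1 FPKM, and 32.1 and 40.2 FPKM at 84 and 106 h, above every population before 68 h. Later it stayed at 36.0, 37.5, 38.4 and 27.3 FPKM at 126, 142, 144 and 216 h. Against 0 to 9 h its first difference passed only with 8 and 9 h as the early window (0.0122) or without 0 h of the first series (0.0365). The middle rise was 1.10 on the log2 scale (adjusted p 0.00118 in limma), and it ended only in the parallel series alone (0.322, over alternatives from 0.000127). From end to end the rise was 1.21 (adjusted p 0.000146), though the 0 h value of the first series lies above the 216 h value.

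*Notch4*, a receptor best known from blood vessels, fell. Its lowest, median and highest levels were 2.96, 4.08 and 4.73 FPKM at 0 to 9 h. It was 1.19, 0.410 and 0.743 FPKM at 34, 42.5 and 54.5 h and 0.987 and 0.83 FPKM at 38 and 60 h. The windows do not overlap. It was 0.592 FPKM at 68 h, and values of 80 h and later lay between 0.697 and 1.37 FPKM. *Notch4* fell by 1.47 on the log2 scale to 34 to 60 h (adjusted p 5.43e-08 in limma), and passed in every alternative run. With 1 added before the logarithm, folds of genes at such levels are understated. Endothelial markers moved with it in part: of 4 listed 2 were lower at 126 to 216 h, and *Pecam1*, the most abundant and also a gene of ES cells, made up most of a sum of 25.0 to 45.9 FPKM at 0 to 9 h and of 3.73 to 20.05 FPKM at 126 to 216 h. None of the 4 was at 0 in any population. Their part in the fall of *Notch4* was not tested.

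Among the ligands, *Dll1* activates Notch in neighbouring cells and changed the most. Its lowest, median and highest levels at 0 to 9 h were 0.901, 1.93 and 3.02 FPKM. It was 7.82, 15.2 and 5.47 FPKM at 34, 42.5 and 54.5 h and 9.10 and 6.30 FPKM at 38 and 60 h, all above the early values. At 80, 92 and 103 h it was 6.09, 8.81 and 11.8 FPKM, and at 84 and 106 h 3.43 and 4.35 FPKM. The parallel series is lower here than the first. *Dll1* then reached 28.2, 43.4, 17.1 and 42.5 FPKM at 126, 142, 144 and 216 h. It rose by 1.76 on the log2 scale to 34 to 60 h (adjusted p 9.45e-05 in limma), and by 2.15 between the last windows (6.34e-05). The first rise ended in the parallel series alone (0.0870, over alternatives from 5.74e-05). Between the middle windows the difference was -0.34 and did not pass.

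*Dll3* is a delta ligand that acts mostly inside the cell that makes it and does not activate Notch in neighbours. It had 1.12, 2.61 and 3.71 FPKM as lowest, median and highest level at 0 to 9 h. Values were 3.54, 5.79 and 4.81 FPKM at 34, 42.5 and 54.5 h, 3.5 and 5.31 FPKM at 38 and 60 h, and 5.83 to 8.22 FPKM at 80 to 106 h. At 126, 142, 144 and 216 h it was 15.7, 33.1, 18.5 and 38.5 FPKM, above every earlier value. *Dll3* rose by 0.70 on the log2 scale to 34 to 60 h (adjusted p 0.0153 in limma) and by 1.77 between the last windows (2.70e-05). The first of these ended within the first series (0.0967) and within the parallel series (0.207), over alternatives from 0.00342.

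*Jag1*, a jagged ligand, ran through a low. Its lowest, median and highest levels were 5.43, 6.45 and 14.2 FPKM at 0 to 9 h, the highest at 2 h. It was 4.57, 3.82 and 4.79 FPKM at 34, 42.5 and 54.5 h and 4.77 and 4.60 FPKM at 38 and 60 h, below all early values. The difference of -0.56 did not pass (limma, adjusted p 0.0530) but did with 0.1 FPKM added before the logarithm (0.0452), with no term for series (0.0482) and without 8 h (0.0472), 80 h (0.0401), 84 h (0.0486) or 103 h (0.0229). At 80, 92 and 103 h it was 4.80, 7.0 and 14.8 FPKM and at 84 and 106 h 4.96 and 9.35 FPKM, so that it rose within the window in both series. It stayed at 15.1, 13.5, 12.2 and 14.3 FPKM at 126, 142, 144 and 216 h. *Jag1* rose by 0.64 on the log2 scale at 80 to 106 h (adjusted p 0.0405 in limma) and by 0.81 after it (0.0147). The earlier call ended under quantile normalization (0.184), in the first (0.0991) or parallel series alone (0.492) and without 34, 42.5, 54.5, 92, 103 or 106 h (0.0751, 0.101, 0.0654, 0.0515, 0.143 and 0.116), over alternatives from 0.0117. The later call ended in either series alone (0.164 and 0.0766) and without 84 h (0.0526), over alternatives from 0.00144. The end to end rise of 0.88 (0.00317) ended in the first series alone (0.0774, over alternatives from 0.000278).

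*Jag2*, the other jagged ligand, was highest at 0 h in the first series, at 16.5 FPKM, and at 84 h in the parallel series, at 12.4 FPKM against 11 FPKM at 0 h. It had 4.67, 9.58 and 16.5 FPKM as lowest, median and highest level at 0 to 9 h. The late values of 5.74, 5.33, 6.77 and 6.63 FPKM at 126, 142, 144 and 216 h overlap with the 4.67 FPKM of 9 h. At 34 to 60 h its difference of -0.36 did not pass (limma, adjusted p 0.245) except without 9 h (0.0230), and it was 0.12 in the parallel series alone and 0.22 with 8 and 9 h as the early window. From end to end *Jag2* fell by 0.59 on the log2 scale (adjusted p 0.0464 in limma), the weakest of the 10 calls. It passed in 13 of 29 alternatives, with adjusted p from 0.0019 to 0.936: it ended with 8 and 9 h alone as the early window (0.936), in the parallel series alone (0.846), and without 1 of 14 populations, at 0.0507 to 0.115. Those were 0, 1, 34, 42.5, 54.5, 80, 92, 126 and 142 h of the first series (0.104, 0.102, 0.0524, 0.0539, 0.0523, 0.0523, 0.0537, 0.0908 and 0.115) and 0, 60, 106, 144 and 216 h of the parallel series (0.0835, 0.0507, 0.0537, 0.0584 and 0.0624).

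Both Fringe genes rose late. *Lfng*, the enzyme of the segmentation clock, had 1.4, 1.68 and 2.04 FPKM as lowest, median and highest level at 0 to 9 h and 2.28, 3.02, 2.53, 2.37 and 2.08 FPKM at 34, 42.5, 54.5, 38 and 60 h. It was 3.45, 5.39 and 17 FPKM at 80, 92 and 103 h and 2.02 and 4.96 FPKM at 84 and 106 h, so the first series was ahead. At 126, 142, 144 and 216 h it was 22.7, 26.7, 16.8 and 17.5 FPKM, above every other population but 103 h. *Lfng* rose by 0.85 on the log2 scale at 80 to 106 h (adjusted p 0.0217 in limma) and by 1.84 after it (0.000111). The first rise ended under quantile normalization (0.10), in the parallel series alone (0.612) and without 34 or 106 h (0.0535 and 0.0512), over alternatives from 0.00395.

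*Mfng*, which modifies the same sugars, kept between 3.33 and 6.89 FPKM in every population up to 106 h, with 3.33, 4.81 and 5.4 FPKM as lowest, median and highest level at 0 to 9 h. It was 12.9, 15.7, 13 and 19.4 FPKM at 126, 142, 144 and 216 h, above all others. The rise of 1.3 on the log2 scale between the last windows (adjusted p 5.14e-06 in limma) passed in every alternative run. By ratio of means, 126 to 216 h over 0 to 9 h, *Dll1* was 17.4, *Lfng* 12.2, *Dll3* 10.5, *Mfng* 3.36, *Notch1* 2.17, *Notch3* 2.17, *Notch2* 2.00, *Jag1* 1.82, *Jag2* 0.589 and *Notch4* 0.253. The samples of these windows did not overlap for 6 higher members and *Notch4*, against 46.8% of all genes (27.7% higher, 19.1% lower), and overlapped for *Notch3*, *Jag1* and *Jag2*.

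The adherent monolayer asks whether the same genes move when cells differentiate without forming aggregates. *Notch4* fell and *Dll1* rose early here too, and both Fringe genes and the delta ligands were highest at the end. *Notch3* and *Jag2* rose already by 35.5 h. *Notch1* had a low of 7.31 FPKM at 20.5 h and stood at 9.67 and 9.25 FPKM at 41.5 and 53.5 h, but at 17.7 FPKM at 35.5 h.

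At 35.5 to 53.5 h against 0 to 8.5 h (3 times each) limma called 5 of 10 members, 4 higher and 1 lower, against 10.7% of all 13527 genes (4.00% higher, 6.65% lower). For 80.5 to 101.5 h (3 times) against 35.5 to 53.5 h it called 3 of 10, all higher, against 39.4% of all genes (25.5% higher, 13.8% lower), a share of members near that of all genes. The last step, 125.5 to 216 h (4 times) against 80.5 to 101.5 h, gave 4 of 10, all higher, against 7.11% (5.69% higher, 1.42% lower). From end to end all 10 were called, 9 higher and 1 lower, against 58.6% (35.2% higher, 23.4% lower). The median log2 difference of the members was 0.22, 0.36, 0.44 and 1.22, and that of all genes -0.08, 0.17, 0.05 and 0.14. Quantile normalization moved the median of all genes from 0.17 to 0.01 at 80.5 to 101.5 h and from 0.14 to -0.02 from end to end, and the shares of higher calls from 37.5 to 55.8% (541 higher and 900 lower against 765 and 607), from 64.9 to 45.1% (3455 and 1868 against 2096 and 2554), from 80.0 to 63.3% (770 and 192 against 508 and 295) and from 60.1 to 48.8% (4759 and 3163 against 3774 and 3966) in the 4 comparisons. In the last step the count of members was 0 without 80.5 h and 1 without 92.5 h. The count of all genes moved from 962 to 163 without 80.5 h, 292 without 92.5 h, 472 without 101.5 h, 2284 without 125.5 h and 631 without 216 h. In the first step it moved from 1441 to 893 without 0 h and 693 without 2.5 h, and in the second from 5323 to 3380 without 35.5 h and 3400 without 92.5 h.

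*Notch1* was at 12.4, 17.3 and 14.5 FPKM at 0, 2.5 and 8.5 h and at 19.7, 23.7, 19.0 and 31.1 FPKM at 125.5, 140.5, 144 and 216 h. The late values lie above all others, and the end to end rise was 0.62 on the log2 scale (adjusted p 0.0266 in limma). That call ended under quantile normalization (0.0727) and without 0, 8.5, 140.5 or 216 h (0.107, 0.0650, 0.0526 and 0.0761), over alternatives from 0.00659. The last step of *Notch1* passed only without 35.5 h (0.0432). *Notch2* ran from 5.76 to 16.7 FPKM, with a median of 10.1 FPKM, and its 4 late values of 10.7, 11.6, 16.7 and 14.8 FPKM exceeded the early 7.48, 6.58 and 6.89 FPKM (0.84, adjusted p 0.000994).

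*Notch3* was at 12.6, 10.7 and 13.3 FPKM at 0, 2.5 and 8.5 h and at 28.3, 20.5 and 21.1 FPKM at 35.5, 41.5 and 53.5 h. At 80.5, 92.5 and 101.5 h it reached 40.7, 44.6 and 38.1 FPKM, and at 125.5, 140.5, 144 and 216 h 41.9, 44.2, 25.9 and 42.1 FPKM. It went up in both early steps with no overlap of the windows, and the 144 h sample lay below the rest of its window. That sample had the highest mural sum of the late times, 205 FPKM, the highest fibroblast sum, 1138 FPKM, and the highest mesoderm sum, 24.7 FPKM (mostly *T*), and of 5 endoderm genes it had the highest *Sox17*, *Foxa2*, *Gata4* and *Gata6* of all times (10.9, 13.6, 11.9 and 7.24 FPKM), while *Cxcr4* was highest at 216 h. It also held the highest *Notch2*, *Dll3*, *Lfng* and *Mfng*. The part of other cell types in these levels was not tested. *Notch3* rose by 0.87 on the log2 scale (adjusted p 0.0106 in limma) and then by 0.80 (0.00575). The first of these ended without 2.5 h (0.0573, over alternatives from 0.00122). *Notch4* was at 4.10, 3.44 and 3.24 FPKM at 0, 2.5 and 8.5 h and at 0.879, 0.678 and 0.331 FPKM at 35.5, 41.5 and 53.5 h. Its difference of -1.51 on the log2 scale (adjusted p 6.65e-05) left it below 1 FPKM at every time from 35.5 h.

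*Dll1* was at 3.11, 4.53 and 4.17 FPKM at 0, 2.5 and 8.5 h, and at 13.5, 15.2 and 17 FPKM at 35.5, 41.5 and 53.5 h. It stood at 17.4, 19.2 and 19.5 FPKM at 80.5, 92.5 and 101.5 h and at 27.5, 32.3, 35.7 and 42.3 FPKM at 125.5, 140.5, 144 and 216 h. Each window lies above the one before it, but the 68.5 h sample between windows, at 27.0 FPKM, lies above all of 80.5 to 101.5 h. *Dll1* rose by 1.73 on the log2 scale in the first step (adjusted p 6.65e-05 in limma) and by 0.83 in the last (0.00827), which ended without 80.5 h (0.0603, over alternatives from 0.00253). *Dll3* was at 2.31, 1.62 and 2.35 FPKM early, at 8.89, 15.2 and 11.6 FPKM at 35.5, 41.5 and 53.5 h, and at 19.5, 26.0, 37.8 and 31.5 FPKM late. It rose by 2.04 (adjusted p 0.000145) and by 1.02 in the last step (0.0150). Between these it had 17.4 FPKM at 68.5 h and 12.98, 13.9 and 12.8 FPKM at 80.5, 92.5 and 101.5 h. The second rise of *Dll3* ended without 80.5 h (0.0879), 92.5 h (0.0525) or 101.5 h (0.0511), over alternatives from 0.00275.

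*Jag1* ran from 3.40 FPKM at 41.5 h to 12.9 FPKM at 140.5 h, with a median of 8.30 FPKM. It stood at 4.90, 3.40 and 4.55 FPKM at 35.5, 41.5 and 53.5 h and at 11.5, 12.1 and 10.7 FPKM at 80.5, 92.5 and 101.5 h, and rose by 1.24 on the log2 scale (adjusted p 0.000192 in limma). *Jag2* was at 7.09, 6.25 and 8.87 FPKM at 0, 2.5 and 8.5 h, then 17.8, 16.4 and 15.6 FPKM at 35.5, 41.5 and 53.5 h, a rise of 1.08 (adjusted p 0.00093). It declined after that to 11.3, 10.5, 8.73 and 11.3 FPKM at the late times, still called higher than at the start by 0.45 (0.0182). That call ended under quantile normalization (0.442) and without 0 h (0.0556) or 2.5 h (0.0921), over alternatives from 0.00839. Its decline passed at 80.5 to 101.5 h only under quantile normalization (0.04995) or without 80.5 h (0.0493). Whether *Jag2* differs between the cultures was not tested.

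*Lfng* kept between 0.992 and 2.89 FPKM up to 53.5 h, then stood at 4.63 FPKM at 68.5 h, 6.55, 7.97 and 11 FPKM at 80.5, 92.5 and 101.5 h, and 14.7, 18.1, 20.3 and 16.3 FPKM at the late times. Its steps did not overlap: it rose by 1.74 on the log2 scale (adjusted p 0.000135 in limma) and by 0.97 (0.0192). *Mfng* was at 3.31 to 6.24 FPKM up to 53.5 h and at 12.6, 12.8, 19.1 and 15.2 FPKM late, with a last rise of 0.89 (0.0135). The last rise of *Lfng* ended without 80.5 h (0.131) or 92.5 h (0.0764), over alternatives from 0.00774. That of *Mfng* ended without the same times (0.0723 and 0.0606), over alternatives from 0.00725.

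The E14 libraries ask which Notch genes respond in 4 days of differentiation in WT cells, and whether loss of *Fyn* changes this. WT cells gained *Notch3*, *Dll1* and *Mfng*. KO cells gained *Notch3* and, by a call that few settings kept, *Notch2*. Between KO and WT no Notch gene passed the threshold at either day, although *Notch3*, *Dll1*, *Jag1* and *Lfng* were at their highest in WT day 4 library 1, which stands apart.

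Of the 10 members 9 passed the filter of 1 FPKM in 3 of 12 libraries, and *Lfng* did not. For WT at day 4 against day 0 limma called 3 of 9, all higher, against 25.8% of 12257 genes (15.5% higher, 10.3% lower). A count this small says little beside that share. In the KO limma called 2 of 9, both higher, against 19.3% (11.8% higher, 7.56% lower), a share near that of all genes. KO against WT gave 0 of 9 at day 4, with 2 at an unadjusted p below 0.05, against 0.0734% of all genes (9 called, 1483 at an unadjusted p below 0.05). At day 0 it gave 0 of 9, with 0 at an unadjusted p below 0.05, against 0.171% (21 called, 1785 at an unadjusted p below 0.05). The test of the difference between the changes of KO and WT called 0 of 9, with 2 at an unadjusted p below 0.05, against 0% of all genes (537 at an unadjusted p below 0.05). The median log2 difference of the members was 0.91, 0.73, -0.05, 0.27 and -0.56 in these 5 comparisons, and that of all genes 0.08, 0.05, -0.03, 0.00 and -0.03. Comparisons share libraries, and each one's values are given on their own. With the libraries blocked by replicate number, as paired samples, the member counts were 4, 2, 0, 0 and 0. In the KO the count was 0 without the filter, 1 with the 2 groups fitted alone or with small nucleolar RNA genes left out, and 6 without WT day 4 library 1 and KO day 0 library 3 together. It was 0 without KO day 0 library 1 or 2 or KO day 4 library 3, 1 without KO day 4 library 2, WT day 4 library 3 or any of the WT day 0 libraries, and 4 without KO day 0 library 3. The share of higher calls among all genes in the KO moved from 60.9 to 49.6% with small nucleolar RNA genes left out (1443 higher and 927 lower against 1247 and 1267). At day 0 the share of higher calls among the few called genes moved from 23.8 to 35% under quantile normalization (5 higher and 16 lower against 7 and 13). The counts of all genes also depended on single libraries: 3166 for WT became 1843 without WT day 0 library 2 and 2007 without library 3, and 2370 for the KO became 1283 and 1043 without KO day 0 libraries 1 and 2 and 1158 without KO day 4 library 3. For KO against WT at day 4, 9 became 5 without KO day 4 library 1 and 14 without WT day 4 library 3. At day 0, 21 became 161 without WT day 0 library 1, 34 without WT day 4 library 1 and 7 to 13 without KO day 0 library 1 or 2, WT day 0 library 2 or 3, KO day 4 library 1 or 3 or WT day 4 library 3.

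*Notch1* was at 3.74, 5.36 and 5.21 FPKM in WT libraries 1, 2 and 3 at day 0 and at 5.74, 4.84 and 5.50 FPKM at day 4. KO levels were 2.54, 4.70 and 7.49 FPKM at day 0 and 2.79, 8.08 and 6.15 FPKM at day 4. The 4 groups overlap, and no difference passed. *Notch2* was at 3.31, 3.39 and 4.54 FPKM in WT at day 0, and 7.47, 6.61 and 7.50 FPKM at day 4, with no overlap. In the KO it was at 2.98, 3.43 and 3.2 FPKM and then at 3.38, 9.09 and 10.1 FPKM, so library 1 had not moved. The WT difference of 0.79 on the log2 scale did not pass (limma, adjusted p 0.0650). It did with the libraries blocked by number (0.0489), with the 2 groups fitted alone (0.0204) and without KO day 4 library 1 (0.00546). The KO difference of 0.91 passed (0.0483).

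The KO call of *Notch2* held in 3 of 19 alternatives, with adjusted p in limma from 0.00187 to 0.181. It ended in every setting that left out 1 library except KO day 4 library 1: without KO day 0 libraries 1 to 3 (0.128, 0.112 and 0.0701), WT day 0 libraries 1 to 3 (0.0578, 0.0643 and 0.0590), KO day 4 libraries 2 and 3 (0.148 and 0.181) and WT day 4 libraries 1 to 3 (0.0558, 0.0606 and 0.0635). *Notch3* was at 3.82, 3.12 and 3.22 FPKM in WT at day 0 and 23.0, 10.4 and 10.5 FPKM at day 4, and at 4.20, 3.28 and 5.29 FPKM and 8.32, 8.32 and 11.8 FPKM in the KO. Day 4 libraries lay above all day 0 libraries in both genotypes. The receptor rose by 1.74 on the log2 scale in WT (adjusted p 0.00162) and by 1.00 in the KO (0.0269). The KO call of *Notch3* ended without the filter (0.0755) and without KO day 0 library 1 (0.0759) or 2 (0.112) or KO day 4 library 3 (0.107), over alternatives from 0.00225. *Notch4* ran from 0.333 to 4.31 FPKM over the 12 libraries, and passed in no comparison except KO day 4 against day 0 under quantile normalization (log2 difference -1.10, adjusted p 0.0275).

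*Dll1* was at 0, 0.0753 and 0.0161 FPKM in WT libraries 1, 2 and 3 at day 0 and at 7.63, 1.60 and 5.53 FPKM at day 4. In the KO it was at 0.0150, 0.0163 and 0.559 FPKM at day 0 and at 0.737, 1.33 and 2.52 FPKM at day 4. Day 4 libraries lie above the day 0 libraries in both genotypes, in the KO by little: day 0 library 3, which stands apart, is close to day 4 library 1. It rose by 2.36 on the log2 scale in WT (limma, adjusted p 0.00231, 0.000483 to 0.0129 over the alternatives), and the KO difference of 1.05 did not pass (0.0910) but did with 0.1 FPKM added before the logarithm (0.0290), without WT day 4 library 2 (0.0288) and without both libraries that stand apart (0.0363). The day 4 difference of KO from WT, -1.12 on the log2 scale, did not pass (adjusted p 0.294), and the test of the difference between the changes gave -1.31 (adjusted p 0.997). WT library 2 lies inside the range of the KO, but each KO library of day 4 lies below the WT library of the same number. With the libraries blocked by number the day 4 difference did not pass either. *Dll3* ran from 0.357 to 3.22 FPKM and passed only for KO day 4 against day 0 without KO day 0 library 3 (0.0455), or without that library and WT day 4 library 1 (0.0489).

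*Jag1* was at 1.92, 0.825 and 1.56 FPKM in WT at day 0 and at 13.2, 1.85 and 2.61 FPKM at day 4. In the KO it was at 2.66, 3.5 and 2.86 FPKM at day 0 and at 0.966, 1.3 and 1.80 FPKM at day 4. WT and KO do not overlap at either day: the KO libraries lie above at day 0 and below at day 4. Of the 9 members past the filter 1 was apart in this way at day 0, higher in the KO, against 21.4% of all genes (10.5% higher, 10.9% lower). At day 4 it was 2, *Jag1* and *Mfng*, both lower, against 16.5% (6.54% higher, 9.99% lower). Counts this small say little beside those shares. None of the differences between KO and WT passed. KO against WT was 0.74 on the log2 scale at day 0 and -1.17 at day 4 (limma, adjusted p 0.346), and the difference between the changes was -1.91 (adjusted p 0.997). Between the days *Jag1* passed only in WT without WT day 4 library 2 (adjusted p 0.0339), and in the KO without WT day 4 library 1 (0.0357) or without both libraries that stand apart (0.0449). *Jag2* ran from 1.29 to 7.48 FPKM with the highest value in KO day 0 library 3, which stands apart. It passed only for day 4 against day 0 without that library, in WT (0.0332) and in the KO (0.00946), or without it and WT day 4 library 1 (0.0192 and 0.00615).

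*Lfng*, below the filter, was at 0.0911, 0.0987 and 0.127 FPKM in WT at day 0 and 6.08, 0.398 and 1.89 FPKM at day 4, and at 0.0474, 0.154 and 0.566 FPKM and 0.460, 0.966 and 0.875 FPKM in the KO. It was not tested. *Mfng* was at 0.619, 0.969 and 0.789 FPKM in WT at day 0 and at 3.80, 3.44 and 4.04 FPKM at day 4, and at 0.859, 0.400 and 4.12 FPKM and 2.95, 3.05 and 2.78 FPKM in the KO. The 3 KO libraries of day 4 lie just below the 3 of WT, and KO day 0 library 3 lies with the day 4 libraries. *Mfng* rose by 1.41 on the log2 scale in WT (limma, adjusted p 0.0167, 0.000349 to 0.0552 over the alternatives, the highest without the filter). Its KO difference of 0.73 did not pass, but was 1.28 without KO day 0 library 3 and then passed (0.0013).

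Markers of other cell types were set beside these values at day 4, and 0 of any list were called in limma for KO against WT. The endoderm sum was 18.1, 23.5 and 33.5 FPKM in WT libraries 1, 2 and 3 and 1.49, 1.34 and 7.47 FPKM in the KO. In WT library 1, which stands apart, *Cxcr4* made up 14.9 FPKM of the sum, and *Gata4* (0.961 FPKM), *Gata6* (0.712 FPKM) and *Sox17* (0.210 FPKM) were below KO library 3 (2.30, 2.73 and 0.711 FPKM). All 3 endoderm genes tested (*Gata4*, *Gata6*, *Foxa2*) had an unadjusted p below 0.05. The neural progenitor sums overlap, at 255, 189 and 149 FPKM in WT and 98.1, 183 and 148 FPKM in the KO. *Sox2*, which is also a gene of ES cells, made up 119.7 FPKM of the 255 in WT library 1 and most of the sum in the other libraries. Of 4 tested *Sox1* and *Pax6* had an unadjusted p below 0.05 and were lower in the KO: *Sox1* was 47.2, 7.81 and 11.6 FPKM in WT and 0.990, 1.27 and 7.08 FPKM in the KO, and *Pax6* 26.8, 3.71 and 6.77 FPKM and 0.228, 0.475 and 2.37 FPKM. *Fabp7* was 47.4, 0.626 and 7.49 FPKM in WT and at most 0.765 FPKM in the KO. WT library 1, where *Notch3*, *Dll1*, *Jag1* and *Lfng* are highest, thus also has the most *Sox1*, *Pax6*, *Zbtb16* and *Fabp7*, but not the most *Nes*. Levels of *Nes* overlapped between the genotypes, at 5.28, 2.68 and 9.14 FPKM in WT and 8.19, 2.31 and 10.2 FPKM in the KO. The epiblast sum was 170, 181 and 380 FPKM in WT and 405, 300 and 402 FPKM in the KO, and of 4 tested *Fgf5* had an unadjusted p below 0.05. Of 3 fibroblast genes tested 1 had an unadjusted p below 0.05, and their median log2 difference was -0.99. *Sparc* was 49.1, 130 and 324 FPKM in WT and 29.9, 29.8 and 99.5 FPKM in the KO. *Vim* was 77.5, 27.3 and 42.5 FPKM in WT and 22.5, 16.1 and 29.7 FPKM in the KO, and both overlap. Any part of these cells in the levels of the Notch genes was not tested.

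**Figure D2:**
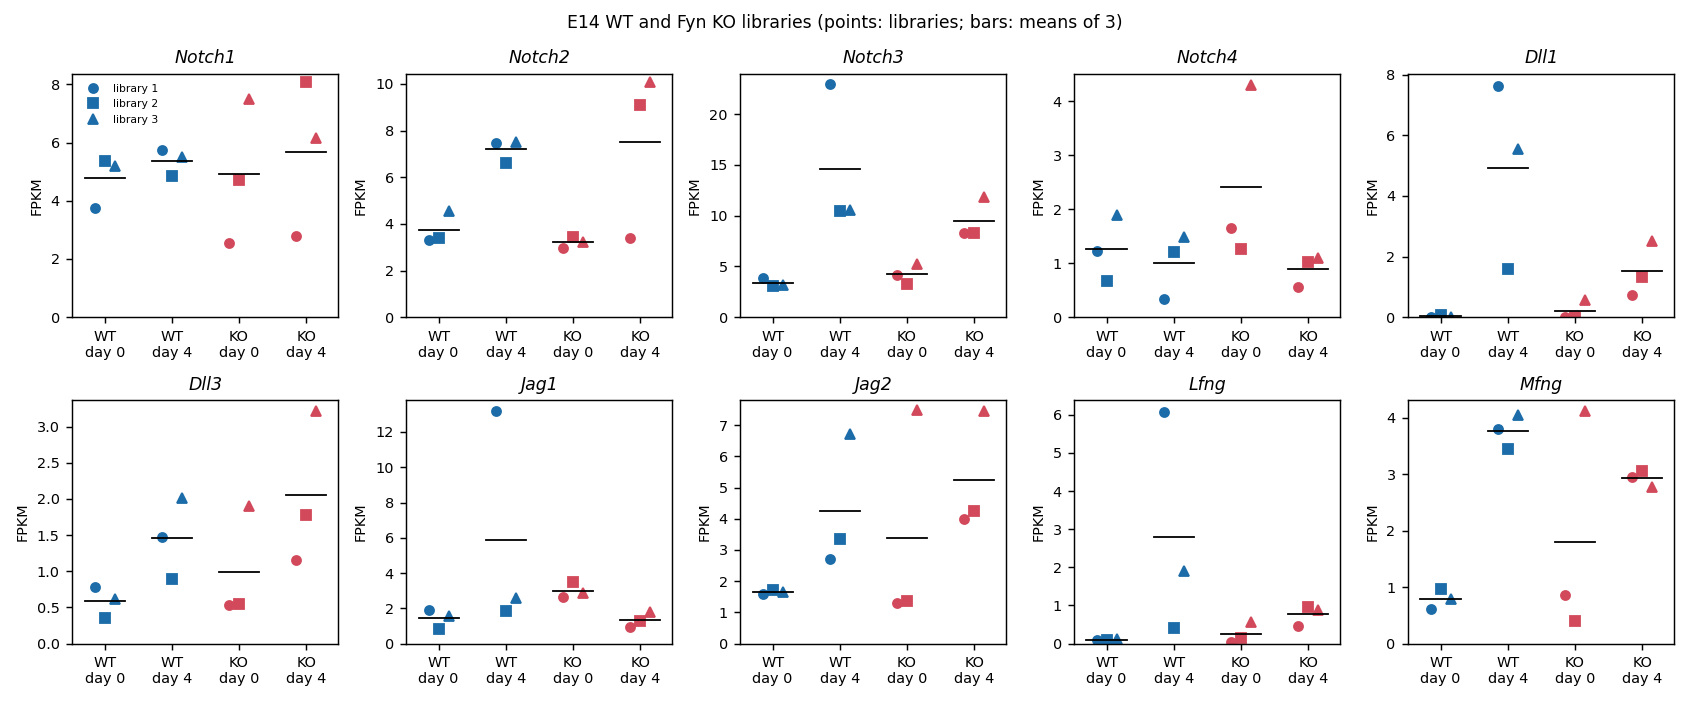
Level of each gene (FPKM, y axis) in the 12 E14 libraries by genotype and day (x axis), with a marker for each library and a bar for the mean of 3. *Notch3* is at 10.4 to 23.0 FPKM in WT at day 4 and 3.12 to 3.82 FPKM at day 0. *Notch3*, *Dll1*, *Jag1* and *Lfng* are highest in WT day 4 library 1 at 23.0, 7.63, 13.2 and 6.08 FPKM.

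The single cells ask whether late cells carry receptor and ligand together. At 144 h most cells held RNA of *Notch1*, *Notch3* and *Dll1*. At 216 h *Notch3* and *Dll1* were each above 0.5 RPKM in 4 of 8 cells. *Dll3* was above it in at most 2 of 8 cells of a time, *Jag1* and *Lfng* in at most 3 and *Jag2* in at most 4, at 106 h. Genes found in most cells share many cells without any link, and a link between receptor and ligand was not tested. Detection in single cells misses transcripts, so a cell without a value may still express the gene.

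Values were quantile normalized between cells: the highest value of every cell was 4.134 on the log10 scale, and 4914 to 5214 genes lay above 0.5 RPKM in a cell. Of 64 cells *Mfng* was above 0.5 RPKM in 33, *Notch1* in 23, *Notch3* in 22, *Dll1* in 19, *Jag1* in 9, *Jag2* in 9, *Notch2* in 7, *Dll3* in 7 and *Lfng* in 3. Of 8 cells at each of 0, 9, 38, 60, 84, 106, 144 and 216 h, *Notch1* was above it in 3, 0, 2, 1, 2, 1, 7 and 7. *Notch3* was above it in 2, 1, 2, 2, 2, 2, 7 and 4, so both receptors became frequent at 144 h. *Dll1* was above it in 1, 1, 0, 1, 0, 4, 8 and 4 cells, and was found in all 8 cells of 144 h. *Mfng* was above it in 4, 0, 2, 5, 6, 7, 6 and 3, earlier than the others. *Lfng* was above it in 3 cells, all of 144 h, with up to 30.2 RPKM.

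On the log10 scale the median *Dll1* was 0.980 over the 8 cells of 144 h and 0.225 over those of 216 h, and that of *Notch1* was 0.455 and 0.685. The highest *Dll1* was 132 RPKM among cells of 144 h and 361 RPKM among those of 216 h. The latter cell held 8616 RPKM of *Hes6*, but *Hes6* was above 0.5 RPKM in all 16 cells of these times, and a cell of 216 h with 6739 RPKM of it held 0.118 RPKM of *Dll1*. Of 16 cells of 144 and 216 h, *Notch1* and *Dll1* were both above 0.5 RPKM in 10, *Notch1* alone in 4 and *Dll1* alone in 2. *Dll1* and the Notch target *Hes5* were both above it in 10 and *Dll1* without *Hes5* in 2. *Notch3* and *Jag1* were both above it in 0 of these cells, *Notch3* alone in 11 and *Jag1* alone in 3. Cell 16 of 216 h, which 1 alternative leaves out, is among these 16 and had 2.88 RPKM of *Notch1*, 4.72 RPKM of *Notch3*, 0.383 RPKM of *Dll1* and 0 RPKM of *Hes5*, so it counts as *Notch1* alone. Of 16 cells of 0 and 9 h, 0 held both *Notch1* and *Dll1*.

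With the 8 cells of a time as 1 sample, limma called 0 of 9 members for 144 and 216 h against 0 and 9 h, with 3 at an unadjusted p below 0.05, against 0.725% of 11449 genes (83 called, 1657 at an unadjusted p below 0.05). Those 3 were *Notch1* (log2 difference 2.28, adjusted p 0.0822), *Dll1* (2.19, 0.172) and *Notch3* (1.57). The median difference was 0.67 for the members and 0.01 for all genes. Leaving out 0, 9, 144 or 216 h left 1 sample in a group, with the spread taken from the other times, so calls of those fits are not given. Without any other time the counts were 0 members and 0 genes, and the log2 of the mean RPKM gave 1 gene.

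**Figure D3:**
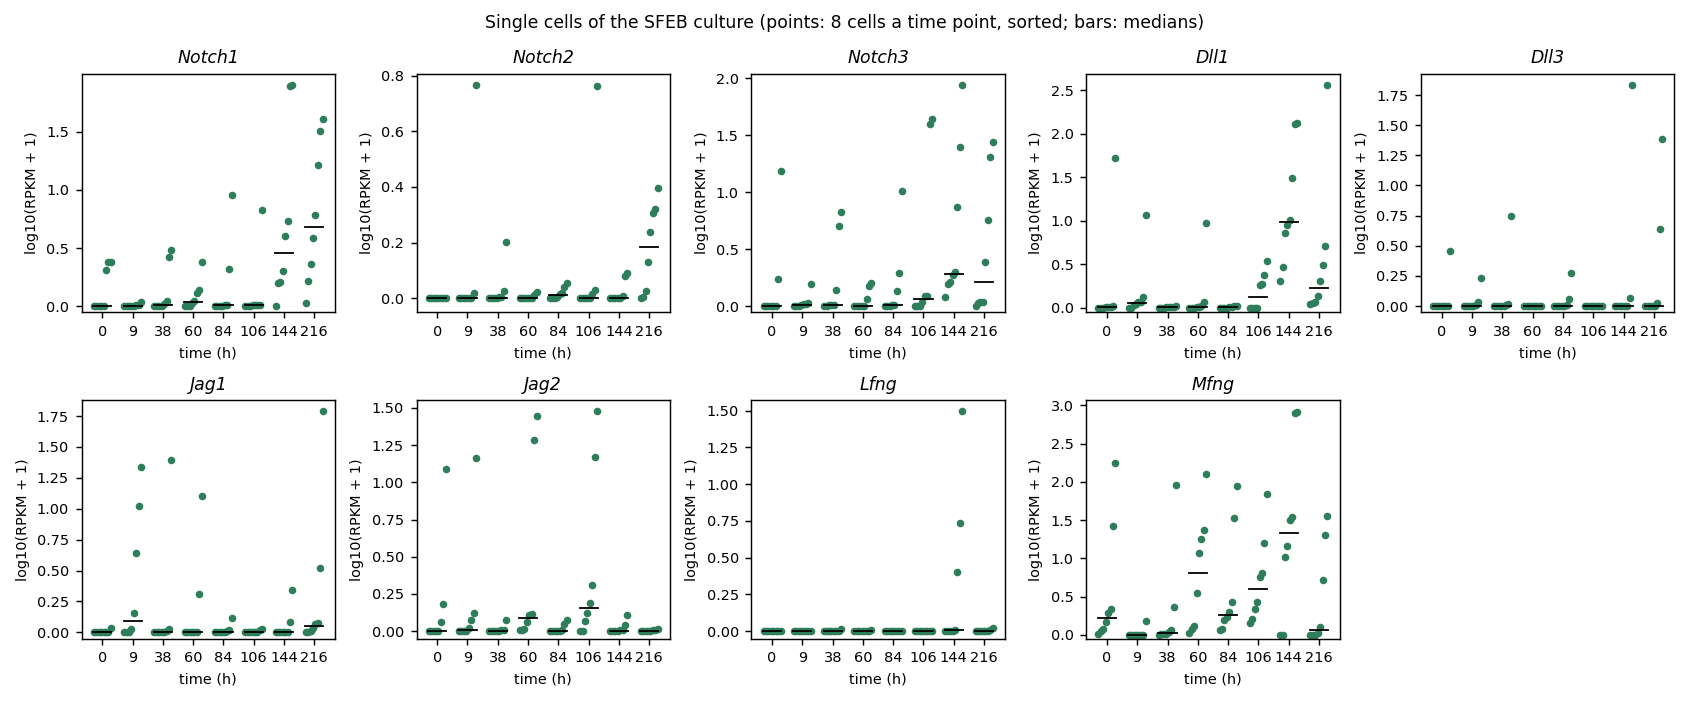
Level of each gene in the 64 single cells (log10(RPKM + 1), y axis) by time of collection (hours, x axis), with a point for each cell and a bar for the median of 8. *Dll1* lies above 0.5 RPKM in 8 of 8 cells at 144 h and in 1 of 8 at 0 h.

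Other genes of the pathway come from 4 fixed lists. For SFEB 126 to 216 h against 0 to 9 h limma called 2 of 6 other ligand genes higher and 1 lower, 12 of 21 genes of receptor processing higher and 1 lower, 4 of 13 nuclear genes higher and 4 lower, and 6 of 8 targets higher and 0 lower, against 37.4% higher and 29.5% lower of all genes. The shares of the other ligands and of the nuclear genes are near those of all genes. In the adherent culture 7 of 7 targets were higher from end to end, against 35.2% of all genes. The target *Hes5* had a mean of 0.917 FPKM at 0 to 9 h and 50.4 FPKM at 126 to 216 h of SFEB culture (log2 difference 4.78, adjusted p 2.32e-09), and *Nrarp*, a feedback inhibitor of Notch, 2.30 and 37.7 FPKM (3.79, 1.69e-09). *Dtx4*, a ubiquitin ligase of the deltex family, went from 1.51 to 44.9 FPKM (4.21, 1.81e-10). *Rbpj*, the DNA-binding partner of cut Notch, fell from 86.5 to 42.4 FPKM (-1.02, 3.43e-05), and the corepressor *Ctbp2* from 79.1 to 39.5 FPKM (-1.0, 6.67e-07). The acetyltransferase gene *Kat2b* fell from 12.5 to 6.33 FPKM (-0.90, 0.00177) and the protease gene *Furin* from 9.65 to 6.60 FPKM (-0.47, 0.00422).

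In E14 WT cells at day 4 against day 0 limma called 1 of 4 other ligand genes higher, 2 of 20 genes of receptor processing higher, 2 of 13 nuclear genes higher and 1 lower, and 1 of 4 targets higher and 1 lower, against 15.5% higher and 10.3% lower of all genes. With lists this short, these shares say little beside those of all genes. *Dtx4* went from a mean of 0.0877 to 10.0 FPKM (log2 difference 3.17, adjusted p 0.000772), *Dtx3* from 6.48 to 26.2 FPKM (1.84, 0.00179) and the coactivator gene *Maml3* from 0.0776 to 1.73 FPKM (1.3, 0.00959). *Mib1*, whose product lets a ligand be taken up by its cell, went from 8.66 to 16.3 FPKM (0.87, 0.0128). *Kat2b* fell from 24.1 to 8.98 FPKM (-1.35, 0.00664), and the target *Hes1* fell from 42.7 to 20.9 FPKM (-0.98, 0.0262). *Hes5* had 0, 1.54 and 12.4 FPKM as lowest, median and highest level in WT at day 4. Between KO and WT 0 genes of the 4 lists were called in limma at either day.

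Some courses were alike over the 22 SFEB populations, by Pearson's r on log2(FPKM + 1), a description without a p since all follow time. Among the members *Dll3* and *Mfng* had r 0.920 (0.862 over the 15 adherent times), *Dll1* and *Dll3* 0.868 (0.981), *Lfng* and *Mfng* 0.866 (0.917) and *Notch2* and *Notch3* 0.826 (0.792). *Notch4* and *Dll1* ran opposite at -0.733 (-0.873), while *Dll1* and *Jag2* were at -0.623 in SFEB and 0.510 in adherent culture. Of all genes, those most like *Lfng* were *Ildr2* (0.980, adherent 0.965), *Sox6* (0.973, 0.941) and *Gm1568* (0.973, 0.934). *Dll3* was most like *Phf21b* (0.968, 0.919), *Rassf4* (0.967, 0.771) and *Zfp2* (0.964, 0.621), and *Dll1* most like *Kif21a* (0.945, 0.878), *Gdap1l1* (0.943, 0.905) and *Fgd4* (0.932, 0.393).

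For the receptors, *Notch1* was most like *Afap1* (r 0.961, adherent 0.791), *Brwd1* (0.957, 0.704) and *Eid2b* (0.952, 0.502) over the same 22 populations and 15 times. *Notch2* was most like *Patz1* (0.930, 0.428), *Zc3h7b* (0.930, 0.754) and *Dpy19l3* (0.926, 0.603), and *Notch3* most like *Atp7b* (0.944, 0.918), *Slc31a1* (0.941, 0.700) and *Clic4* (0.940, 0.854). *Notch4* was most like *Ptges* (0.970, 0.628), *Cd109* (0.963, 0.863) and *Mitf* (0.963, 0.876). *Jag1* was most like *Mn1* (0.947, 0.907), *Irx2* (0.938, 0.911) and *Tmub1* (0.931, 0.693). *Jag2* had the loosest neighbours, *Mlxipl* (0.889, 0.405), *Eppk1* (0.875, not in the adherent table) and *Hdac4* (0.822, 0.599). *Mfng* was most like *Peli1* (0.956, 0.731), *Onecut1* (0.950, 0.874) and *Arhgap33* (0.947, 0.902). By ranks, 6 of these 30 genes were again among the 3 most alike.

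The 10 genes lie on 7 chromosomes of the mouse build NCBIM37 (GENCODE M1). *Dll1*, *Notch3* and *Notch4* share chromosome 17 at chr17:15504318-15513836, chr17:32257765-32303825 and chr17:34701213-34725448. *Notch1* lies at chr2:26313423-26372183 and *Jag1* at chr2:136907192-136942380. *Notch2* lies at chr3:97817461-97954290, *Lfng* at chr5:141083295-141091497, *Dll3* at chr7:29076673-29087257, *Jag2* at chr12:114146801-114167706 and *Mfng* at chr15:78586312-78603905.

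Promoters are shown for *Dll1*, *Dll3* and *Lfng* because these genes rose together at the end of both courses. They are the 250 bases before the gene's start, from RefSeq on GRCm38.p6, where 10 windows cover 9 of the members and *Mfng* has none. Capitals mark TGGGAA or its reverse complement TTCCCA, the core letters of the RBPJ motif, and CAGCTG, an E-box, which reads the same on both strands. *Dll1* has starts at chr17:15375824-15376073 and chr17:15376933-15377182 on the minus strand, of which the window with a match is shown. *Dll3* is at chr7:28301786-28302035 on the minus strand and *Lfng* at chr5:140607091-140607340 on the plus strand.
Dll1: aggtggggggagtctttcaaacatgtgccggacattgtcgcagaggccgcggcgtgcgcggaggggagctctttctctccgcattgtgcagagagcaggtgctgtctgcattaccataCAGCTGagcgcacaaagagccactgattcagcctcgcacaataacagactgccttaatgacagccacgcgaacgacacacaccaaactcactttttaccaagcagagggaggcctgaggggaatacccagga
Dll3: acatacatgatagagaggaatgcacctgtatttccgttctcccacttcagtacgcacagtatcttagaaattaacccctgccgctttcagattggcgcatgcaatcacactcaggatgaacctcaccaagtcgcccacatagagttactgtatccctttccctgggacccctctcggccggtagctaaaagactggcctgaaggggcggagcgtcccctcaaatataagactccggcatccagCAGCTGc
Lfng: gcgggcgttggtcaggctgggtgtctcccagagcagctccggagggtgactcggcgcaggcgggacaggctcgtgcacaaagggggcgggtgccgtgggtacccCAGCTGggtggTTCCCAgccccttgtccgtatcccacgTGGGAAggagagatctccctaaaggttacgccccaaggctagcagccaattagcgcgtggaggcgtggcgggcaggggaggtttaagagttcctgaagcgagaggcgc
The RBPJ letters occur 2 times in the *Lfng* window, beginning 135 and 108 bases before the start, and in 1 of the 10 windows in all, against 21.6% of all 32851 promoters. CAGCTG occurs in 4 of the 10 windows, those of *Dll1*, *Dll3*, *Lfng* and *Jag1*, against 13% of all promoters. CATCTG, another E-box, occurs in 0 of the 10 windows (14.4% of all), and CACNAG, a motif of Hes repressors, in 4 (36.7%). A match is a run of letters, and binding was not measured.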

How the data were processed

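RNA of 22 SFEB populations, 15 adherent samples, 64 single cells and 12 E14 libraries had been sequenced, and the submitters' processing notes name TopHat2 2.0.8b and Cufflinks 2.1.1, with the build mm10 for E14 and mm9 for the other samples. The study's methods name other versions of both tools, and which were used for each table is not settled here. For the adherent and E14 tables the authors deposited FPKM, and no correction between batches is stated. For the SFEB populations the authors deposited a score, FPKM after ComBat correction, in which 1256 values (0.422%) lay below 0 and were set to 0, none of them of a Notch gene. For the single cells the authors deposited log10 values of RPKM + 1, quantile normalized between cells.

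From these, log2(FPKM + 1) was fitted in limma 3.58.1 (R 4.3.3) with a variance trend in the empirical Bayes step, and p was adjusted by Benjamini-Hochberg over all genes passing a filter, at a threshold of 0.05. The filter was 1 FPKM in 3 libraries for E14 and above 0.5 FPKM in 3 samples for the R1 cultures. The E14 fit had 4 groups, and the SFEB fit had a term for the series. Populations of a window served as its spread, and 22 and 68 h of SFEB culture, and 20.5 and 68.5 h of adherent culture, lay between windows. Cells of a time were averaged to 1 sample. The procedures were tested on simulated data. Alternatives were another pseudocount, another or no filter, quantile normalization, replicate blocks, fits of 2 groups, of 1 series or without the series term, wider windows, the mean of RPKM before the logarithm, omission of 1 named cell of 216 h, ranks, and omission of each sample in turn. Chosen after seeing the data were leaving out small nucleolar RNA genes, leaving out the 2 E14 libraries that stand apart, and an early SFEB window of 8 and 9 h. Python 3.11.15 with pandas 2.3.3 and numpy 2.4.6 was used for the rest.

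The members and gene lists were chosen with earlier results of these data known. All members are named. Of the other pathway genes, up to 4 rises and 4 falls with the largest log2 difference among those called are named for SFEB 126 to 216 h against 0 to 9 h and for E14 WT, and all called for KO against WT at day 4. The endoderm, neural progenitor, epiblast and fibroblast genes named at day 4 were chosen after their values were seen. For each member reaching 2 FPKM the 3 genes with the highest r are named. Residuals of E14 libraries with the same number correlated at 0.199, 0.220 and 0.224 between WT days and at 0.136, 0.258 and 0.240 between genotypes at day 4, but at 0.0239, 0.0899 and 0.00112 between KO days and at 0.0628, 0.339 and -0.115 between genotypes at day 0, so the replicate block is an alternative only.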

Additional observations from a re-analysis of the deposited data

Results flagged for a closer look

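A sample far from the others of its window was sought in 50 groups of a gene and a window, and chance gives about 1 in 20 such groups. *Notch2* at 2 h of the first SFEB series was 3.41 FPKM, below the 6.41 to 8.92 FPKM of the other populations of 0 to 9 h. *Jag1* in the same population was 14.2 FPKM, above the 5.43 to 7.28 FPKM of the others. *Jag1* at 42.5 h was 3.82 FPKM, below the 4.57 to 4.79 FPKM of the other populations of 34 to 60 h. *Notch3* at 144 h of adherent culture was 25.9 FPKM, below the 41.9 to 44.2 FPKM of the other late times.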

How the results depend on the processing

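Of the values set against each alternative, 2664 stayed the same, 37 grew stronger, 99 grew weaker and 70 changed sign, and the cause was not tested. Every value that changed sign had an adjusted p above the threshold (limma) in both settings. The comparisons named here are E14 WT or KO day 4 against day 0, KO against WT at day 4 or at day 0, the difference of the day 4 changes between KO and WT, and each window against the one before it. Quantile normalization moved *Notch1* in WT from 0.15 to -0.00946, and for KO against WT at day 4 from -0.02 to 0.0399 with 17 genes called in place of 9. It moved *Dll3* in the difference of changes from 0.01 to -0.0300, and in adherent culture at 80.5 to 101.5 h from 0.17 to -0.00631. In SFEB culture at 80 to 106 h it left 2 members called in place of 5 and moved *Notch4* from 0.10 to -0.0228, *Jag2* from 0.16 to -0.0152 and *Mfng* from 0.15 to -0.0639. At 126 to 216 h it moved *Notch2* from 0.09 to -0.0557 and *Notch4* from 0.03 to -0.0825. Without WT day 4 library 1 and KO day 0 library 3 together, *Notch4* in WT moved from -0.19 to 0.0827, the members called in the KO from 2 to 6 and *Notch1* for KO against WT at day 4 from -0.02 to 0.0250. At day 0 the same omission gave 65 genes in place of 21 and moved *Dll1* from 0.19 to -0.0202, *Dll3* from 0.27 to -0.0341, *Jag2* from 0.43 to -0.19 and *Mfng* from 0.41 to -0.15, and in the difference of changes *Jag2* from -0.15 to 0.26. With no filter the KO had 0 members called, KO against WT had 46 genes at day 4 and 42 at day 0, and the difference of changes had 4 genes in place of 0. With only the 2 groups compared these were 1 member, 0 genes at day 4 and 2 at day 0. With small nucleolar RNA genes left out and libraries rescaled the KO had 1 member called and KO against WT 32 genes at day 4, and the difference of changes moved from 0.02 to -0.0269 for *Notch1* and to -0.0326 for *Dll3*. A pseudocount of 0.1 FPKM moved *Notch4* for KO against WT at day 4 from -0.04 to 0.00286 and *Dll3* in the difference of changes to -0.0865. Blocking by replicate number gave 38 genes for KO against WT at day 0 and 2 for the difference of changes. The parallel SFEB series alone had 1 member called at 34 to 60 h in place of 4, with 492 genes in place of 5305 and *Jag2* at 0.12 in place of -0.36. It had 0 members and 1 gene at 80 to 106 h in place of 4752 genes, 995 genes at 126 to 216 h in place of 5431 with *Notch4* at -0.0667, and 5243 genes in place of 9047 for 126 to 216 h against 0 to 9 h. With 8 and 9 h alone as the first window, 34 to 60 h had 2707 genes, *Notch2* moved from 0.19 to -0.0353 and *Jag2* to 0.22. The first series alone had 2 members called at 80 to 106 h and 2537 genes at 126 to 216 h, with *Notch2* at -0.17. In single cells the log2 of the mean RPKM gave 1 gene in place of 83 and *Jag1* at 0.48 in place of -0.06. Ranks in place of values kept 6 of the 30 most similar courses. Leaving out 1 E14 library gave 1843 to 3531 genes in WT with *Notch4* at -0.39 to 0.0827, and in the KO 0 to 4 members, 1043 to 3064 genes and *Notch1* at -0.15 to 0.54. For KO against WT at day 4 it gave 5 to 14 genes, *Notch1* at -0.29 to 0.34, *Notch2* at -0.30 to 0.37 and *Notch4* at -0.31 to 0.13. At day 0 it gave 7 to 161 genes, *Notch1* at -0.35 to 0.28, *Dll1* at -0.0202 to 0.29, *Dll3* at -0.0341 to 0.43, *Jag2* at -0.19 to 0.75 and *Mfng* at -0.15 to 0.79. The difference of changes had 0 to 5 genes, *Notch1* at -0.30 to 0.39, *Notch2* at -0.13 to 0.54, *Dll3* at -0.25 to 0.31 and *Jag2* at -0.47 to 0.47. Leaving out 1 SFEB population gave 2 to 5 members at 80 to 106 h, and at 126 to 216 h *Notch2* at -0.0103 to 0.19 and *Notch4* at -0.0226 to 0.0942. Leaving out 1 adherent time gave 693 to 1873 genes at 35.5 to 53.5 h, and 3380 to 6703 genes at 80.5 to 101.5 h with *Dll3* at -0.00339 to 0.35. At 125.5 to 216 h it gave 0 to 5 members, 163 to 2284 genes, *Notch3* at -0.19 to 0.0569 and *Jag1* at -0.0779 to 0.0345. Leaving out the cells of 1 time gave 0 to 1 members, 0 to 259 genes, *Notch2* at -0.0892 to 0.43 and *Jag1* at -0.72 to 0.59.

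Each R1 population is a single sample, so a window's spread mixes time with culture, and in the last window with replating. The E14 groups hold 3 libraries, and 1 library stands apart in each of 2 groups. Day 4 libraries 3 of WT and KO correlated more with each other than with their own groups. The series term rests on 2 series that share only 0 h. Levels of RNA do not give the amount of receptor at the surface or its cleavage. The batches used for the correction of the SFEB table are not stated, and the alternatives cannot undo it.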
